A study of Mus musculus with 12 samples.

Results

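The 9 genes described here encode subunits of Polycomb repressive complex 1 (PRC1) and were taken as a fixed list of gene symbols, 9 of the 39017 genes in the deposited gene table. The 4 CBX genes Cbx2, Cbx6, Cbx7 and Cbx8 and the 3 PHC genes Phc1, Phc2 and Phc3 encode subunits of canonical PRC1. Rybp and Yaf2 encode the 2 alternative subunits of variant PRC1. Poly(A) RNA was sequenced from mouse embryonic stem cells (mESCs) of 2 lines grown either in serum or in 2i, giving 4 groups of 3 biological replicates and 12 libraries. J1 cells were wild-type. The line labelled 3B3-3l was a single stable line derived from mESCs lacking both Dnmt3a and Dnmt3b, which carried Dnmt3b and Dnmt3l transgenes under the constitutive CAG promoter and was kept under blasticidin. It was made so that DNA methylation stays high in 2i, a medium in which wild-type mESCs lose much of it. Serum medium held LIF at 500 U/ml according to the labels, whereas the study's methods give 1000 U/ml for it. The 2i medium was free of serum and held 1 µM PD0325901, an inhibitor of MEK, 3 µM CHIR99021, an inhibitor of GSK3, and LIF at 1000 U/ml. In serum, J1 cells grew on inactivated SNLP feeder cells that were depleted before analysis and 3B3-3l cells on gelatin, so line and growth surface cannot be told apart there.

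PRC1 is an E3 ligase that places ubiquitin on histone H2A through its RING subunits. In canonical PRC1 a CBX protein reads the methyl mark that PRC2 leaves on histone H3, and a PHC protein polymerises through its SAM domain and helps to compact chromatin. In variant PRC1, RYBP or its paralogue YAF2 takes the place of the CBX protein, and binding does not depend on the PRC2 mark. In mESCs Cbx7 is known as the predominant CBX gene, whereas Cbx2 and Cbx8 are known to rise when the cells differentiate.

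Library totals lay between 37050652 and 44515395 estimated counts, and all 9 genes passed the filter on low counts, as did 17885 genes in all. The labels were checked on the engineered genes. CPM gives the estimated counts of a gene relative to a scaled library total (TMM). Dnmt3b stood at 865 to 936 CPM in every 3B3-3l library and at 41.0 to 47.2 in J1 2i. Dnmt3l stood at 285 to 294 CPM in 3B3-3l 2i against 47.9 to 55.5 in J1 2i. Dnmt3a stood at 166 to 167 CPM in J1 serum and 29.3 to 34.3 in 3B3-3l serum. All 9 measured markers of ES cells were present in every group, with a summed level of 4458 to 6438 CPM. The summed level of 12 fibroblast markers was 57.2 to 60.9 CPM in J1 serum and 70.8 to 82.5 in 3B3-3l serum, and 16.0 to 27.5 in 2i, so feeder-grown J1 libraries did not stand above those of the line grown on gelatin. In J1 serum, Lum was at 0 and 7 of the 12 were under 1 CPM. The summed fibroblast level was thus lower in 2i than in serum in both lines, and its part in the results below was not tested. Pdgfrb went the other way in J1, from 6.31 CPM on average in serum to 19.4 in 2i, where it made up most of the sum of 26.7. In bulk RNA, fewer cells of a kind and less RNA per cell cannot be told apart.

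The levels of the 9 genes were first compared per length, as RPKM. It divides the reads of a transcript by its effective length and the scaled library total. In serum Phc1 stood highest, at 252.8, 241.8 and 244.4 RPKM in the 3 J1 libraries and 278, 278 and 282 in those of 3B3-3l. Cbx7 came next, with group means between 83.6 and 96.1, and then Rybp, with means between 26.9 and 37.7. Cbx6, Cbx2 and Phc2 lay between 8.88 and 18.3 RPKM, Yaf2 and Phc3 between 2.03 and 5.32, and Cbx8 between 0.251 and 1.20. Of the 32 pairs of neighbours in this order over the 4 groups, 30 had libraries that did not overlap. The exceptions were both in J1 2i, where the libraries of Cbx6 overlapped those of Phc2 and those of Yaf2 overlapped those of Phc3.

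The place of Cbx7 beside Phc1 depended on how its reads were assigned. The transcripts of Cbx7 that could be named added up to between 73.8% and 78.6% of its gene count, against 96.1% to 100% for Phc3 and the whole count for each of the other 7 genes. With the whole gene count spread over the mean effective length of the named transcripts, an alternative added after the data were seen, Cbx7 reached 124 RPKM in J1 2i and 111 in 3B3-3l 2i. The level of Phc1 in 2i was 118 and 105. On that scale the pair overlapped in J1 2i and Cbx7 stood above Phc1 in 3B3-3l 2i, so in 2i their order is not settled by these files. In serum Phc1 stayed clear of Cbx7 on both scales.

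**Figure D1:**
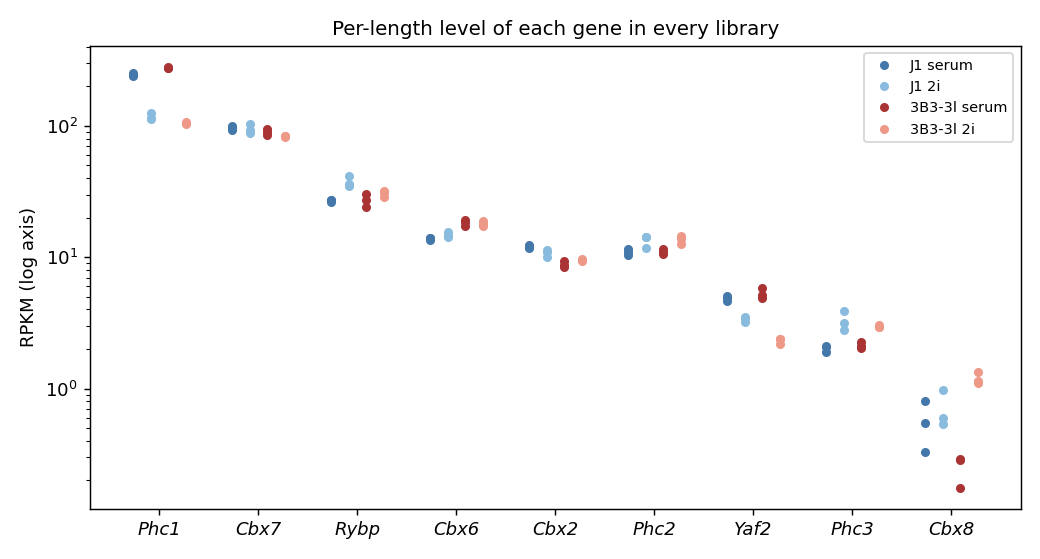
Level of each of the 9 genes in every library, in RPKM on a log axis; genes are ordered by their mean in J1 serum, and each point is 1 library (n = 3 per group). Phc1 stands at 242 to 282 RPKM in serum and 102.9 to 126 in 2i, while Cbx7 lies between 83.1 and 102.9 in every group.

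The medium moved 6 of the 9 genes in each line, judged by an adjusted p under 0.05 in the edgeR quasi-likelihood test over all tested genes. In J1, 3 rose and 3 fell in 2i, where 66.1% of all tested genes passed the test (33.2% higher and 32.9% lower). In 3B3-3l, 3 rose and 3 fell as well, where 65.4% of all genes passed (32.7% in each direction). Libraries of the media did not overlap for 6 of the 9 genes in J1 and 7 in 3B3-3l, against 68.7% and 69.6% of all tested genes. These shares are near the background, so the count of genes that moved sets the list apart from the rest of the genome in neither line. The median log2 fold change over the 9 genes was 0.05 in J1 and 0.09 in 3B3-3l, against 0.01 and 0.01 over all tested genes. The median size of the change, 0.32 and 0.17, was below that of all genes, 0.44 and 0.43. Phc1, Phc3, Phc2 and Yaf2 passed in both lines, each in the same direction.

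**Figure D2:**
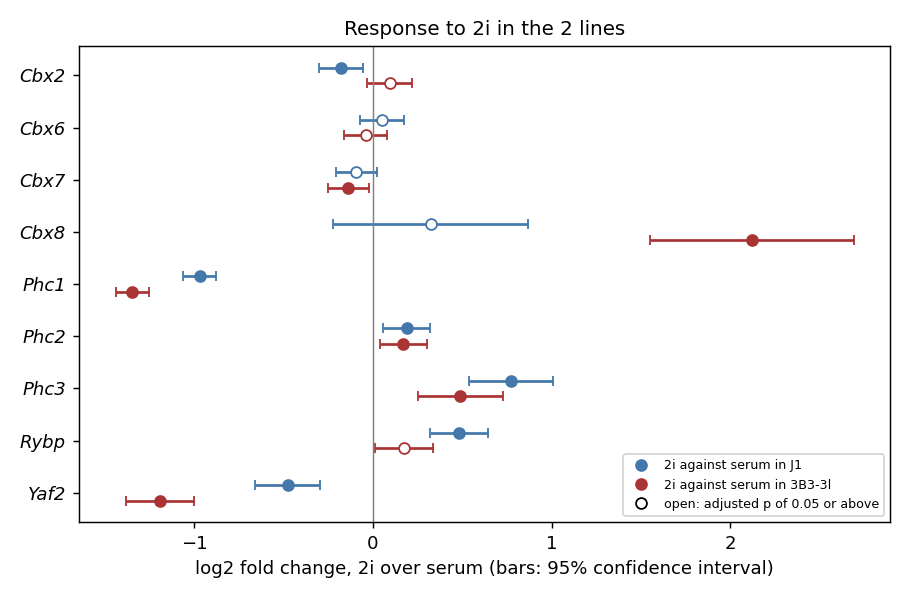
Log2 fold change of each gene in 2i over serum in J1 (blue) and 3B3-3l (red), with 95% confidence intervals from the edgeR fit; open symbols have an adjusted p of 0.05 or above. Phc1 and Yaf2 lie left of 0 in both lines, Phc3 right of 0 in both, and Cbx8 departs from 0 in 3B3-3l alone, at 2.12.

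Of the PHC genes, Phc1 fell and Phc3 rose in 2i in both lines, and Phc2 rose slightly at gene level. Phc1 (ENSMUSG00000040669, GRCm38.p6 chromosome 6, 122317731 to 122340227) encodes the PHC protein with the highest transcript level here. Its level was 757, 727 and 743 CPM in J1 serum and 395, 373 and 369 CPM in J1 2i. In 3B3-3l it was 813, 819 and 807 CPM in serum and 312, 327 and 321 CPM in 2i. The groups did not overlap in either line, and the libraries of 1 group differed by far less than the media did. The log2 fold change was -0.97 ± 0.04 (SE) in J1, adjusted p = 1.79e-11 by edgeR, and -1.35 ± 0.04 in 3B3-3l, adjusted p = 3.15e-13. Phc1 thus kept 0.511 of its serum level in J1 and 0.393 in 3B3-3l. The difference between the lines, -0.38 ± 0.06 on the log2 scale, itself passed the test (edgeR adjusted p = 0.000241).

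Phc3 (ENSMUSG00000037652, chromosome 3, 30899295 to 30969479) and Phc2 (ENSMUSG00000028796, chromosome 4, 128654655 to 128752881) encode the paralogous SAM domain proteins. Phc3 was at 13.8, 12.8 and 12.3 CPM in J1 serum and 22.6, 26.0 and 17.7 in J1 2i. The 3B3-3l libraries were at 14.6, 14.8 and 16.3 CPM in serum and 23.3, 19.6 and 21.3 in 2i. Every 2i library stood above every serum library, and the J1 2i libraries were the most spread. The log2 fold change of Phc3 was 0.77 ± 0.11 in J1 (edgeR adjusted p = 1.54e-05) and 0.49 ± 0.11 in 3B3-3l (adjusted p = 0.00104). The difference of -0.28, with a 95% interval from -0.62 to 0.05, did not pass the test (adjusted p = 0.18), and it did so only without J1 2i replicate 3 (adjusted p = 0.0119). Phc2 changed little, from 24.2 to 24.9 CPM in J1 serum to 25.4 to 29.5 in J1 2i and from 25.0 to 26.5 to 27.6 to 29.9 in 3B3-3l. Its log2 fold changes of 0.19 ± 0.06 and 0.17 ± 0.06 passed the test (edgeR adjusted p = 0.0134 and 0.024). Both calls rested on single libraries. In J1 the call was lost without 2i replicate 1 or 3 (adjusted p = 0.0549 and 0.0525). In 3B3-3l it was lost without 2i replicate 2 or 3 or serum replicate 2 or 3 (adjusted p from 0.0557 to 0.153), and with other filters on low counts (0.0624 with none and 0.106 with at least 10 counts in every library).

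Phc1 made up 94.99% ± 0.300 (SD, n = 3) of the summed PHC level per length in J1 serum and 95.5% ± 0.145 in 3B3-3l serum. In 2i its share was 87.5% ± 0.687 in J1 and 86.3% ± 0.412 in 3B3-3l, and no 2i library reached a serum library. Phc2 took most of the remainder, with 10.1% ± 1.04 in J1 2i and 11.3% ± 0.522 in 3B3-3l 2i. The summed PHC level fell from 259.3 to 135 RPKM in J1 and from 292.3 to 122 RPKM in 3B3-3l, so the gains of Phc2 and Phc3 were small beside the fall of Phc1.

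The stretch around the start of Phc1 is printed because this gene had the smallest adjusted p between media in both lines, and that of Cbx8 because it answered 2i in 1 line. Each runs from 250 bases before to 50 bases after the start that RefSeq gives on GRCm38.p6, on the minus strand in both cases, and capitals mark CG dinucleotides, the bases that DNA methyltransferases act on. The Phc1 stretch is chr6:122340178-122340477 and the Cbx8 stretch chr11:119040864-119041163.
Phc1: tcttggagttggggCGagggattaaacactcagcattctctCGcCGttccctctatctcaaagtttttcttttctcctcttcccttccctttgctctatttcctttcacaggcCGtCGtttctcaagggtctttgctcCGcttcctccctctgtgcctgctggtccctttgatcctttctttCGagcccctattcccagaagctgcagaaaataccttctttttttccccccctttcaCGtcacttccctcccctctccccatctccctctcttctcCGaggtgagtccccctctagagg
Cbx8: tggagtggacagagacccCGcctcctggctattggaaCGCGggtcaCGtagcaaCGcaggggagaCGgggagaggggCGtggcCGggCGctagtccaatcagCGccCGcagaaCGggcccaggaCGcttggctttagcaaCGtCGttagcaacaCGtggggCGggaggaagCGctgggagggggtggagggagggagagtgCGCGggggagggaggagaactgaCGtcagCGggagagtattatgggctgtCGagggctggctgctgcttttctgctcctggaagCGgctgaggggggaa
The Phc1 stretch held 9 CG dinucleotides, and 56.5% of the 32851 promoters of this length in the table held as many or fewer. The Cbx8 stretch held 24, and 81.6% of promoters held as many or fewer. The other promoters in the table held 15 for Phc3, 19, 2 and 45 for 3 starts of Phc2, 31 for Cbx6 and 33 for Cbx7. The median over the table was 7. CG reads the same on both strands, and methylation of these bases was not among the data analysed here.

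Of the CBX genes, none moved by as much as 2-fold in J1, and Cbx8 alone did so in 3B3-3l. Over all genes, 23.2% in J1 and 23.4% in 3B3-3l passed the test with at least a 2-fold change. Cbx7 (ENSMUSG00000053411, chromosome 15, 79915804 to 79971143), which encodes the CBX protein that predominates in mESCs, was at 251, 239 and 249 CPM in J1 serum, 248, 224 and 222 in J1 2i, 256, 250 and 232 in 3B3-3l serum and 216, 224 and 231 in 3B3-3l 2i. The J1 groups overlapped, and the 3B3-3l groups were set apart by a narrow margin. The log2 fold change in J1 was -0.09, with a 95% interval from -0.21 to 0.02 (edgeR adjusted p = 0.137), and passed only without 2i replicate 1 (adjusted p = 0.0326). In 3B3-3l it was -0.14 ± 0.05 (adjusted p = 0.0351). That call was lost without 2i replicate 1 or serum replicate 1 or 2 (adjusted p from 0.102 to 0.141) and with length offsets (0.236). Cbx7 held 78.3%, 78.2%, 76.7% and 74.3% of the summed CBX level per length in J1 serum, J1 2i, 3B3-3l serum and 3B3-3l 2i, and between 79.4% and 82.5% with its whole gene count.

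Cbx8 (ENSMUSG00000025578, chromosome 11, 119036303 to 119040913) encodes a CBX protein known from differentiated cells, and it was the lowest of the 9 genes in every group. It had 29, 49 and 41 counts in J1 serum, or 0.692, 1.18 and 1.11 CPM, and 47, 43 and 69 counts in J1 2i, or 1.07, 0.987 and 1.68 CPM. In 3B3-3l serum it had 23, 20 and 19 counts, or 0.600, 0.478 and 0.489 CPM. In 3B3-3l 2i it had 73, 120 and 89 counts, or 1.75, 2.78 and 2.29 CPM. The J1 groups overlapped, while every 3B3-3l 2i library stood above every other library and every 3B3-3l serum library below every other. Cbx8 rose by 2.12 ± 0.27 on the log2 scale in 3B3-3l, or 4.35-fold (edgeR adjusted p = 3.42e-06). In J1 the log2 fold change was 0.32, with a 95% interval from -0.22 to 0.87 (adjusted p = 0.28). The difference between the lines was 1.80 ± 0.38 and passed the test (adjusted p = 0.00171), the largest in size of the 9 genes.

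Cbx2 was lower and Cbx6 higher in 3B3-3l than in J1, in both media. Cbx2 (ENSMUSG00000025577, chromosome 11, 119023019 to 119031275), whose product compacts nucleosomes, was at 45.0, 43.4 and 41.9 CPM in J1 serum and 39.5, 35.5 and 40.3 in J1 2i. In 3B3-3l it was at 33.5, 30.6 and 31.7 CPM in serum and 33.6, 34.0 and 34.6 in 2i. All 3B3-3l libraries lay below all J1 libraries. The 2i effect was -0.18 ± 0.06 in J1 (edgeR adjusted p = 0.0131) and 0.09 ± 0.06 in 3B3-3l (adjusted p = 0.178). The J1 call was lost without 2i replicate 2 or serum replicate 1 (adjusted p = 0.0773 and 0.0578). The difference between the lines, 0.27 ± 0.08 (adjusted p = 0.0186), was lost without 3B3-3l 2i replicate 2, 3B3-3l serum replicate 2 or J1 serum replicate 1 or 2 (adjusted p from 0.0525 to 0.0817). Cbx6 (ENSMUSG00000089715, chromosome 15, 79823898 to 79834333) ranged from 60.2 to 68.5 CPM over the 6 J1 libraries and from 76.2 to 87.3 over those of 3B3-3l. Its 2i effects were 0.05, with a 95% interval from -0.07 to 0.17, and -0.04, from -0.16 to 0.08. RefSeq also lists a gene, Npcd, that joins Cbx6 to its neighbour Nptxr, so reads of the shared part could be split between the genes.

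Cbx2 and Cbx8 lie 5027 bases apart. Of these neighbours, Cbx8 passed the test between media in 3B3-3l and Cbx2, with a slight fall, in J1.

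**Figure D3:**
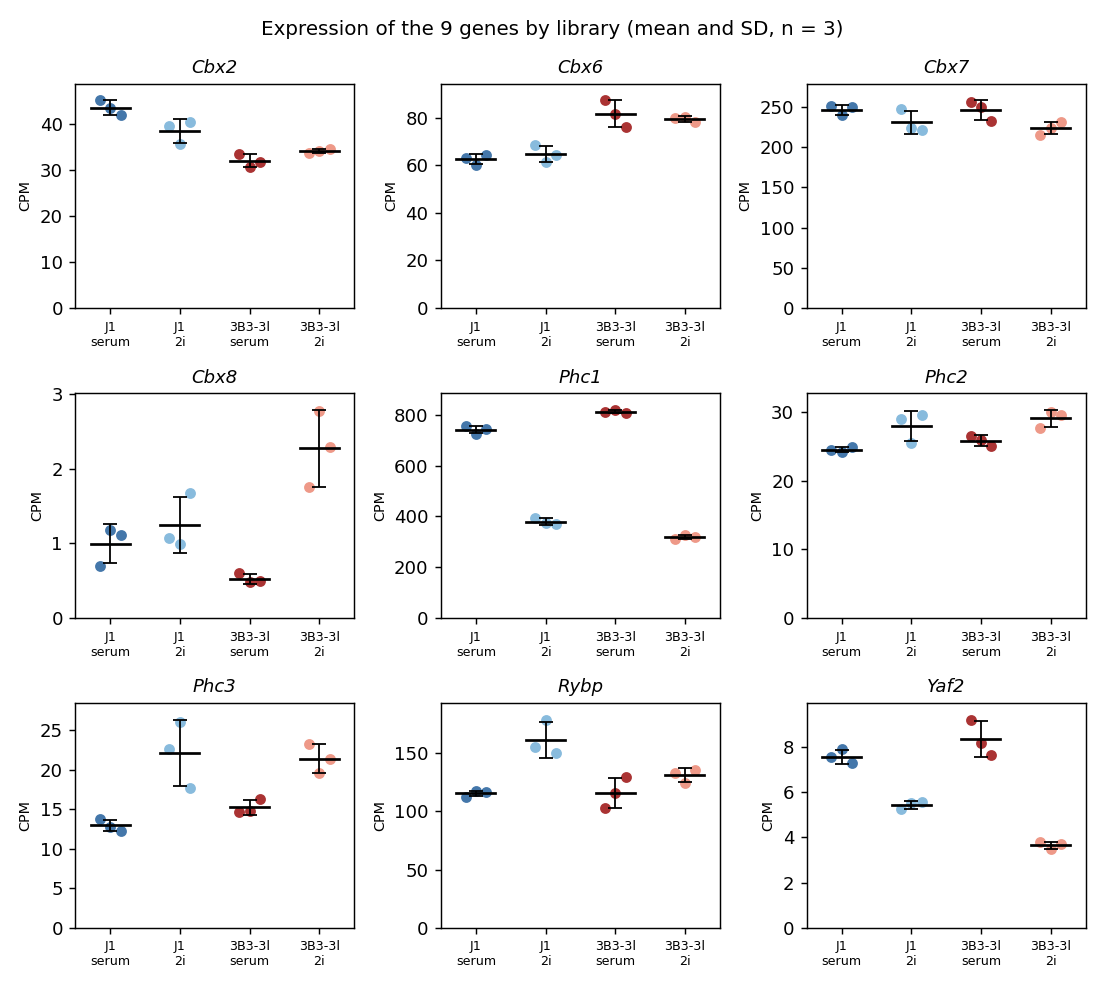
CPM of each of the 9 genes in the 4 groups; points are libraries, bars the mean and SD (n = 3), and every axis starts at 0. Phc1 and Yaf2 are lower in 2i in both lines, Cbx8 reaches 1.75 to 2.78 CPM in 3B3-3l 2i, and Cbx2 and Cbx6 separate the lines.

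The variant subunits moved in opposite directions in J1. Rybp (ENSMUSG00000072872, chromosome 6, 100228565 to 100287358) encodes a ubiquitin-binding protein that stimulates the ligase. It was at 113, 117 and 116 CPM in J1 serum and 155, 179 and 150 CPM in J1 2i. The 3B3-3l libraries were at 103, 116 and 129 CPM in serum and 133, 124 and 136 in 2i. The J1 groups did not overlap, and the 3B3-3l groups did. Rybp rose by 0.48 ± 0.08 on the log2 scale in J1, or 1.40-fold (edgeR adjusted p = 3.79e-05). In 3B3-3l the log2 fold change was 0.17, with a 95% interval from 0.01 to 0.34, and did not pass (adjusted p = 0.0549). It passed without serum replicate 3 (adjusted p = 0.00662) and with no filter on low counts (0.0402). The difference between the lines was -0.31 ± 0.11 (adjusted p = 0.0366). That call was lost when any of 6 libraries was left out, namely 3B3-3l 2i replicate 1 or 2, 3B3-3l serum replicate 2 or 3, J1 2i replicate 2 or J1 serum replicate 1 (adjusted p from 0.0561 to 0.0995), and with length offsets (0.0507). RefSeq also lists a transcribed pseudogene of Rybp, which could share reads with it.

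Yaf2 (ENSMUSG00000022634, chromosome 15, 93283833 to 93336935), the paralogue of Rybp, was at 7.54, 7.88 and 7.26 CPM in J1 serum and 5.24, 5.51 and 5.56 in J1 2i. In 3B3-3l it was at 9.18, 8.17 and 7.64 CPM in serum and 3.77, 3.47 and 3.69 in 2i. The groups did not overlap in either line, and the 3B3-3l 2i libraries were the lowest of all 12. Yaf2 fell by 0.48 on the log2 scale in J1 (SE 0.09, edgeR adjusted p = 0.000137) and by 1.19 in 3B3-3l (SE 0.09, adjusted p = 6.95e-09). The difference between the lines, -0.72 ± 0.12, passed the test (adjusted p = 0.000378), and Yaf2 kept 0.718 of its serum level in J1 and 0.438 in 3B3-3l.

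By the estimated split of reads between transcripts, the coding form of Yaf2 fell in both lines. The difference between the lines passed the test for its other transcript. Yaf2-001 is protein coding, with 4 exons. Yaf2-002 has 5 exons and no annotated coding sequence. It shares 1673 of its 1870 bases with Yaf2-001 and has 197 bases of its own. Yaf2-001 has 1676 bases in all, so nearly all of its reads fit both. Yaf2-001 was at 3.70, 3.60 and 3.56 RPKM in J1 serum and 1.22, 1.97 and 1.46 in J1 2i, and at 4.12, 3.10 and 3.28 in 3B3-3l serum and 1.55, 1.41 and 1.78 in 3B3-3l 2i. Every 2i library lay below every serum library, and the 2i libraries of the lines overlapped. Yaf2-002 was at 1.16, 1.43 and 1.11 RPKM in J1 serum and 2.00, 1.53 and 1.97 in J1 2i, but at 1.74, 2.09 and 1.64 in 3B3-3l serum and 0.833, 0.773 and 0.591 in 3B3-3l 2i. It thus stood higher in 2i than in serum in J1 and lower in 3B3-3l, with no overlap in either.

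An edgeR quasi-likelihood fit over 44389 transcripts, added after the data were seen, gave each of these a test. In it 30.1% of transcripts passed between media in J1, 29.6% in 3B3-3l and 8.36% for the difference between lines. Yaf2-001 changed by -1.30 ± 0.19 in J1 (adjusted p = 0.000452) and by -1.19 ± 0.19 in 3B3-3l (adjusted p = 0.000756). The difference was 0.10, with a 95% interval from -0.48 to 0.69 (adjusted p = 0.885). Yaf2-002 changed by 0.50 ± 0.20 in J1 (adjusted p = 0.0885, not called) and by -1.37 ± 0.20 in 3B3-3l (adjusted p = 0.000508). Its difference between the lines was -1.86 ± 0.28 (adjusted p = 0.00324), and it passed without each library in turn. Between the lines in 2i, where 14.2% of transcripts passed, Yaf2-002 differed by -1.34 ± 0.20 (adjusted p = 0.00149) and Yaf2-001 by 0.02 ± 0.19 (adjusted p = 0.981). In serum, where 10.1% passed, Yaf2-002 differed by 0.52 ± 0.20 and did not pass (adjusted p = 0.141). The fit does not hold the uncertainty of assigning reads to transcripts. Within Yaf2, the share of Yaf2-002 in the deposited TPM, a length-corrected transcript share was 25.4% ± 2.66 in J1 serum and 54.4% ± 9.60 in J1 2i, and 34.4% ± 5.37 and 31.7% ± 5.92 in 3B3-3l.

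**Figure D4:**
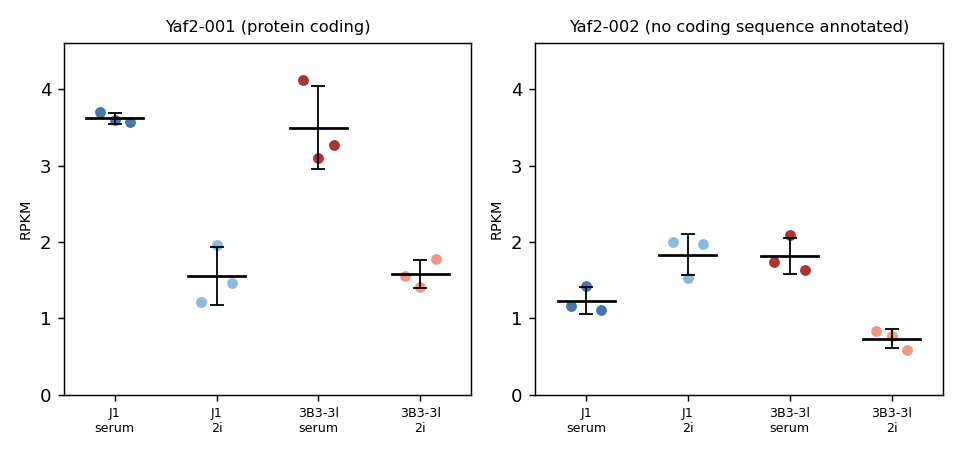
RPKM of the 2 transcripts of Yaf2 in the 4 groups; points are libraries, bars the mean and SD (n = 3). Yaf2-001 is lower in 2i in both lines, while Yaf2-002 stands at 1.53 to 2.00 RPKM in J1 2i and 0.591 to 0.833 in 3B3-3l 2i.

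Over 84 comparisons of the TPM shares of 21 transcripts, 19 had groups that did not overlap. The same count was not taken over all transcripts, so it does not set these genes apart. Shares within a gene are not independent, and those of Yaf2-001 and Yaf2-002 mirror each other. An exact permutation test of 3 libraries against 3 cannot go below p = 0.1, and no comparison passed after Benjamini-Hochberg adjustment (smallest adjusted p = 0.442). Among those without overlap, the share of Yaf2-002 was 29.1 percentage points higher in 2i than in serum in J1, and that of Phc3-004, annotated as a target of nonsense-mediated decay, 22.5 points higher. Phc3-004 rested on 0 to 48.3 reads in a J1 serum library and 101 to 174 in a J1 2i library. The share of Phc3-001 (protein coding) in serum was 15.3 points higher in 3B3-3l than in J1. Cbx8-002, annotated as a processed transcript, differed by -25.9 points between the lines in 2i, and rested on 0 to 17.7 reads in a library. Phc1-004 (protein coding) held 45.8% ± 0.447 of Phc1 in J1 serum, 50.3% ± 3.34 in J1 2i, 42.0% ± 0.983 in 3B3-3l serum and 45.3% ± 0.582 in 3B3-3l 2i. It fell from between 109.7 and 117 RPKM in J1 serum to between 58.7 and 59.7 in J1 2i (edgeR adjusted p = 2.39e-08 in the transcript fit). In 3B3-3l its log2 fold change was -1.36 ± 0.04 (adjusted p = 4.18e-09). Phc2-004 (protein coding), with 75.2% to 89.4% of Phc2, changed by 0.07 ± 0.09 and 0.06 ± 0.09 and did not pass in either line. The slight gene-level rise of Phc2 in 2i was thus not called in its main coding transcript. Phc2-010, annotated as a target of nonsense-mediated decay, held 12.4% ± 2.96 of Phc2 in J1 2i and 11.9% ± 3.02 in 3B3-3l 2i. It was listed at 0 in 2 of the 3 J1 serum libraries and in all 3 of 3B3-3l serum, and at 32.9 to 70.6 reads in the 2i libraries.

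Between media, the ratio of the summed PHC level to the variant subunits shifted far, and that of the summed CBX level much less. Phc1 made up 86.3% to 95.5% of the PHC sum by group mean, while Phc3 rose and Phc2 rose slightly in 2i. The log2 ratio of the summed PHC level to the summed level of Rybp and Yaf2, per length, was 3.09, 2.98 and 3.02 in J1 serum and 1.86, 1.53 and 1.75 in J1 2i. In 3B3-3l it was 3.29, 3.17 and 3.07 in serum and 1.83, 2.00 and 1.84 in 2i. Serum and 2i libraries were far apart in both lines, and the 2i libraries of the lines overlapped. The same ratio for the CBX genes was 1.95 ± 0.06 (SD, n = 3) in J1 serum, 1.56 ± 0.21 in J1 2i, 1.86 ± 0.18 in 3B3-3l serum and 1.78 ± 0.06 in 3B3-3l 2i. The J1 groups did not overlap in this measure and the 3B3-3l groups did. With the whole gene count of Cbx7 these means became 2.25, 1.88, 2.16 and 2.10. Within the variant pair, the log2 ratio of Rybp to Yaf2 was 2.47 ± 0.06 in J1 serum and 3.47 ± 0.12 in J1 2i, and 2.35 ± 0.29 and 3.72 ± 0.02 in 3B3-3l. Yaf2, the lower of the pair in every group, thus made up less of it in 2i than in serum in both lines. The summed level of the pair was 31.8 RPKM in J1 serum and 41.1 in J1 2i, and 32.4 and 32.8 in 3B3-3l. The summed CBX level in serum and 2i was 122.7 and 120.9 RPKM in J1, and 117.6 and 112.4 in 3B3-3l. The lower CBX ratio in J1 2i thus lay mostly in the higher level of the pair, which also lowered the PHC ratio there.

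**Figure D5:**
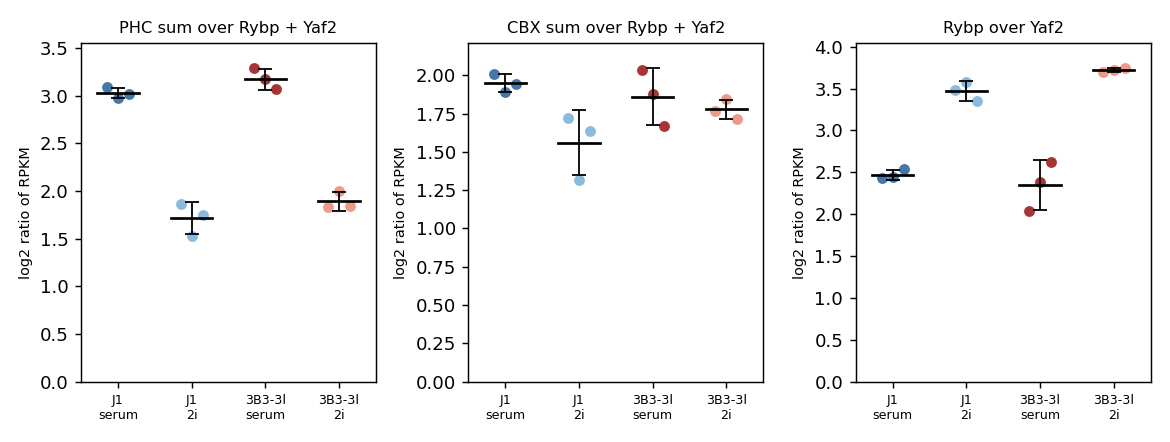
Log2 ratios of per-length levels in the 4 groups, for the PHC sum and the CBX sum over Rybp plus Yaf2 and for Rybp over Yaf2; points are libraries, bars the mean and SD (n = 3). The PHC ratio drops from about 3.03 and 3.17 in serum to 1.72 and 1.89 in 2i, while the CBX ratio stays between 1.32 and 2.04.

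Between the lines in 2i, 6 of the 9 genes passed the test, 2 higher and 4 lower in 3B3-3l, where 45.9% of all tested genes passed (23.0% higher and 22.9% lower). None reached 2-fold, as 8.09% of all genes did, and 6 had libraries that did not overlap, against 52.6% of all genes. Yaf2 was lower by 0.58 ± 0.09 on the log2 scale, Rybp by 0.30 ± 0.08 and Phc1 by 0.25 ± 0.04 (edgeR adjusted p = 9.46e-05, 0.00419 and 0.000261). At gene level both variant subunits were therefore lower in 3B3-3l in 2i. In the estimated split of reads, this lay for Yaf2 in Yaf2-002, without annotated coding sequence. Its mean was 1.83 RPKM in J1 2i and 0.733 in 3B3-3l 2i. The coding Yaf2-001 stood at 1.55 RPKM in J1 2i and 1.58 in 3B3-3l 2i. The transcripts share 1673 bases, and Yaf2-002 held 112 to 149 reads in a J1 2i library and 39.0 to 59.2 in a 3B3-3l 2i library. Which transcript carries the difference is therefore not settled. Cbx8 was higher by 0.87 ± 0.23 (adjusted p = 0.00597) and Cbx6 by 0.29 ± 0.06 (adjusted p = 0.000494). Cbx2 differed by -0.18 ± 0.06 (adjusted p = 0.0214), a call lost without 3B3-3l 2i replicate 1 or J1 2i replicate 1 or 3 (adjusted p from 0.0684 to 0.078) and with length offsets (0.0541). Cbx7, Phc2 and Phc3 differed by -0.05, 0.05 and -0.05 and did not pass. Cbx7 did so with length offsets (log2 difference -0.15, adjusted p = 0.0434).

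Between the lines in serum, 4 of the 9 genes passed, 2 higher and 2 lower in 3B3-3l, where 38.7% of all tested genes passed (21.5% higher and 17.2% lower). None reached 2-fold, as 4.58% of all genes did, and 6 had libraries that did not overlap, against 50.9% of all genes. Cbx6 was higher by 0.39 ± 0.06 (edgeR adjusted p = 7.04e-05), in the same direction as in 2i. Cbx2 differed by -0.44 ± 0.06 (adjusted p = 2.24e-05). Cbx8 differed by -0.92 ± 0.30 (adjusted p = 0.0217), the opposite direction to 2i, and this call was lost without 3B3-3l serum replicate 2 or 3 or J1 serum replicate 2 or 3 (adjusted p from 0.0627 to 0.0937). Phc1 was higher by 0.13 ± 0.04 (adjusted p = 0.0258). Its call was lost without 3B3-3l serum replicate 2 or J1 serum replicate 2 or 3 (adjusted p from 0.0604 to 0.0809), with no filter on low counts (0.182) and with the 6 serum libraries alone (0.0635). Neither variant subunit passed, with 0.01 for Rybp (95% interval -0.15 to 0.17) and 0.14 for Yaf2 (-0.04 to 0.32). Phc3 differed by 0.23 ± 0.11 (adjusted p = 0.12) and passed with the 6 libraries alone (0.0382).

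The 2i effect differed between the lines for 5 of the 9 genes, Cbx8 and Cbx2 more positive in 3B3-3l and Yaf2, Phc1 and Rybp more negative, where 34.7% of all tested genes passed (16.3% more positive and 18.3% more negative). Cbx8 alone differed by at least 2-fold, as 8.22% of all genes did. Both variant subunits were among the 5, as were 3 of the 7 canonical ones. With so few genes these counts are given as a description. The differences of Cbx8, Yaf2 and Phc1 passed without each library in turn.

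Beyond the 9 genes, other Polycomb genes moved in both directions. The counts below are read against the 66.1% of all tested genes that passed between media in J1 (33.2% higher and 32.9% lower) and the 65.4% that passed in 3B3-3l (32.7% in each direction). Of 8 RING and PCGF genes, which encode the ligase and its partners, 5 rose and 1 fell in J1 and 5 rose and 2 fell in 3B3-3l, with median log2 fold changes of 0.28 and 0.13. Bmi1, a PCGF gene of canonical PRC1, rose by 2.42 ± 0.12 and 2.08 ± 0.12 (edgeR adjusted p = 7.01e-11 and 2.81e-10). Pcgf5, a PCGF gene of variant PRC1, fell by 1.15 in 3B3-3l (SE 0.12, adjusted p = 2.72e-07), and its 2i effect differed between the lines by -1.12 ± 0.16 (adjusted p = 7.62e-05). The 2i effect on Scml2, which encodes a SAM domain protein, differed between the lines by -1.07 ± 0.14 (adjusted p = 4.6e-05).

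Of 20 partners of variant PRC1, 8 rose and 9 fell in J1, where 66.1% of all genes passed, and 11 rose and 4 fell in 3B3-3l, where 65.4% did. Bcor, which encodes a corepressor that joins PCGF1 in variant PRC1, changed by -1.26 ± 0.05 in J1 (edgeR adjusted p = 7.36e-12), and its 2i effect differed between the lines by 0.65 ± 0.07 (adjusted p = 8.51e-06). Tfdp1, a partner of E2F6, stood lower in 3B3-3l than in J1 in serum, by 0.63 ± 0.04 (adjusted p = 1.26e-08). Of 12 PRC2 genes, 4 rose and 5 fell in J1 and 6 rose and 4 fell in 3B3-3l, with median log2 fold changes of -0.01 and 0.09. Phf19, which encodes a PRC2 accessory protein, had the most negative change of all these genes, with -2.55 ± 0.09 in J1 and -2.99 ± 0.09 in 3B3-3l (adjusted p = 1.06e-12 and 1.71e-13). Eed, a PRC2 core gene, was higher in 3B3-3l than in J1 in 2i by 0.49 ± 0.06 (adjusted p = 4.35e-06), as was Hdac2 by 0.47 ± 0.05 (adjusted p = 1.18e-06). In serum the lines differed in Kdm2b, whose product brings variant PRC1 to CpG islands, by 0.51 ± 0.05 (adjusted p = 8.21e-07). The 3 HP1 genes Cbx1, Cbx3 and Cbx5 share the chromodomain but not PRC1. Of these 2 rose and 1 fell in J1, and 1 rose and 1 fell in 3B3-3l.

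The genes whose pattern over the 12 libraries was most like that of a member were sought for the 3 members that moved by at least 2-fold between media in a line. Likeness was the root mean square difference of mean-centred log2 CPM, over tested genes whose mean reached 10 CPM. Nearest to Phc1 were Fam126a (0.084) and Lin28b (0.088), which changed by -0.89 and -0.99 in J1 and by -1.51 and -1.32 in 3B3-3l. Nearest to Yaf2 were Rhou (0.092) and Rassf3 (0.10). Nearest to Cbx8 were Gpr56 (0.34) and Prx (0.36), at a much greater distance. Cbx8 had only 19 to 120 counts in a library, and the part of counting noise in this distance was not tested. Among the members themselves the nearest pair was Cbx7 and Phc2 (0.16). In 2i Cbx7 changed by -0.09 in J1 and -0.14 in 3B3-3l, but Phc2 by 0.19 and 0.17. The distance is small for any 2 genes that vary little, so this nearness is not a shared direction. Phc1 lay nearest to Yaf2 (0.22), the other member called lower in 2i in both lines. The 12 libraries share their 4 groups, so these values describe the medium and line pattern only.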

How the data were processed

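Poly(A) RNA-seq of 12 libraries in 4 groups was analysed. The authors quantified reads with Sailfish against mm10 transcript models and summed them with tximport. The deposited gene table holds estimated counts, and the deposited transcript tables hold TPM, estimated counts and lengths. Gene counts were rounded, filtered with filterByExpr (17885 of 39017 genes kept), scaled by TMM and fitted with edgeR 4.0.16 quasi-likelihood (R 4.3.3) over all 12 libraries, with Benjamini-Hochberg adjustment over all tested genes and a threshold of 0.05. RPKM summed, over the transcripts of a gene of at least 50 bases effective length, estimated counts divided by effective length and TMM-scaled library total. CPM used the same scaled totals. Library depth differed little, and low counts limit Cbx8 most. Transcript shares were compared by two-sided exact permutation tests. The scripts were tested on simulated data. The members and gene lists were chosen with earlier results of these data known. Named genes were the 9 members, for each contrast the 2 highest and 2 lowest called genes of the other Polycomb lists, of which those bearing on the text are given and 1 is not reported here, and for each member changed at least 2-fold the 2 genes nearest in pattern. Alternatives were DESeq2 1.42.0 and its size factors, other filters, the 6 libraries compared, length offsets, a replicate block and leaving out each library. Correlations of same-numbered libraries' deviations lay near 0, so the numbers were not taken as pairs. The labels call replicates biological and name no cultures, so p-values measure the spread between these libraries.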

Additional observations from a re-analysis of the deposited data

Results flagged for a closer look

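The 2i effect differed between the lines, by the interaction term of the edgeR fit, for 5 of the 9 genes (log2, 3B3-3l minus J1), where 34.7% of all tested genes passed. The difference was 1.80 for Cbx8, which rose in 3B3-3l and did not pass in J1, and 0.27 for Cbx2, which fell slightly in J1. It was -0.72 for Yaf2 and -0.38 for Phc1, which fell in both lines and further in 3B3-3l. It was -0.31 for Rybp, which rose in J1. The calls of Cbx2 and Rybp were lost when any of several single libraries was left out (edgeR adjusted p up to 0.0817 and 0.0995). Groups of 3 were too small to test single libraries as outliers.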

How the results depend on the processing

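Of 306 values of the 9 genes under other settings, 290 kept their direction and their side of the threshold, 9 lost the call, 3 gained it and 4 turned sign near 0. Without each library in turn, 276 of 324 were kept, 31 lost the call, 3 gained it and 14 turned sign. Those that turned sign were uncalled differences. In serum Rybp between the lines was -0.015 with no filter on low counts and -0.015 with the 6 libraries compared, and Cbx7 was 0.0039 with at least 10 counts in every library. The difference of the 2i effect for Phc2 was 0.013 with length offsets. Leaving out libraries, the range was -0.087 to 0.011 for Cbx6 between media in 3B3-3l. Between the lines in 2i it was -0.075 to 0.0061 for Cbx7, -0.011 to 0.094 for Phc2 and -0.18 to 0.083 for Phc3. In serum it was -0.033 to 0.037 for Cbx7 and -0.075 to 0.085 for Rybp. For the difference it was -0.083 to 0.022 for Phc2 and -0.082 to 0.010 for Cbx7. For Yaf2-001 it was -0.11 to 0.23 between the lines in 2i, -0.21 to 0.0026 in serum and -0.029 to 0.31 for the difference. The other 67 of 72 Yaf2 transcript values were kept.

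The number of the 9 genes called, leaving out libraries, was 5 to 6 between media in J1, 4 to 6 in 3B3-3l, 5 to 6 between the lines in 2i, 2 to 4 in serum and 3 to 6 for the difference. In serum it was 2 without 3B3-3l serum replicate 2 or J1 serum replicate 2 or 3. For the difference it was 3 without 3B3-3l 2i replicate 2, 3B3-3l serum replicate 2 or J1 serum replicate 1. Transcript share comparisons without overlap numbered 19 to 29, with 29 without 3B3-3l serum replicate 1, and 22 with estimated reads. The cause was not tested.

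Same-numbered libraries did not deviate together (correlations between -0.096 and 0.048), so they share only a number. With a replicate block, 6, 5, 6, 3 and 5 of the 9 genes were called between media in J1, between media in 3B3-3l, between the lines in 2i, between them in serum and for the difference. The block took the call from Cbx7 between media in 3B3-3l (edgeR adjusted p = 0.0515) and from Phc1 between the lines in serum (0.0507), and changed no other of the 45 results.

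From CPM, not per length, the log2 ratio of Rybp to Yaf2 was 3.93, 4.89, 3.80 and 5.17 in J1 serum, J1 2i, 3B3-3l serum and 3B3-3l 2i. In the same order the CBX ratio to Rybp plus Yaf2 was 1.52, 1.01, 1.54 and 1.33, and the PHC ratio 2.66, 1.37, 2.78 and 1.46. With the gene count over the mean effective length, the CBX ratio was 2.25, 1.88, 2.16 and 2.10. Low counts limited Cbx8, with 19 to 120 counts in a library.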
